A study of Mus musculus with 4 samples.

Results

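The genes described here mark the cells that wrap blood vessels in the brain. Pericytes sit on capillaries and vascular smooth muscle cells on arterioles and arteries, and together they are called mural cells. The set was 10 named genes of the 54532 listed in each file, taken by symbol: Pdgfrb, Rgs5, Kcnj8, Abcc9, Vtn, Notch3, Anpep, Acta2, Des and Tagln. RNA came from brain tissue of C57BL/6 mice that had been engrafted in the brain with 50000 cells of the mouse glioma line GL261, and from naive mice of the same strain as controls. Tumor-bearing tissue was taken outside the tumor mass, on day 21. There were 4 groups of 1 library each: young tumor-bearing, young naive, old tumor-bearing and old naive. Young mice were 8 to 12 weeks old, and the range given for old mice is 8 to 90 weeks, so the old groups are used as labelled. The labels give no treatment other than engraftment, they tag the naive samples with the glioma line too, and neither the sex nor the number of mice per library is stated. With 1 library a group there was no test between groups and no replicate check. Ranges in parentheses after a level, a fold or a ratio are exact 95% intervals of the reads behind it, which cover counting error only. Levels or ratios whose intervals overlap may still differ.

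In brain capillaries, endothelial cells secrete PDGF-B, which holds pericytes to the vessel through the receptor encoded by Pdgfrb. Pericytes lie within the vascular basement membrane and are known for their part in the blood-brain barrier. Smooth muscle cells instead carry a contractile apparatus of smooth muscle actin and its partners, which sets the diameter of arteries, and Notch3 signalling is needed for these cells to mature.

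Values were deposited as FPKM, fragment counts divided by exon length and by a measure of depth, so levels can be compared between genes. Reads recovered from it came to 21893369 fragments in genes of the young tumor-bearing library, 23267928 in the young naive, 19572261 in the old tumor-bearing and 19629001 in the old naive library. The old tumor-bearing library stood apart from the others. A list of 10 neuronal genes summed to 304.8 FPKM there, against 1045 to 1497 FPKM in the other libraries, and a list of 10 cell cycle genes to 216.6 FPKM, against 3.89 to 12.8 FPKM. The number by which reads had been divided was 1.19 times the fragments in genes in that library and 0.797 to 0.913 times in the others. Differences that involve it are therefore given on the deposited scale and, where it matters, on others. In bulk tissue, fewer mural cells, less RNA per mural cell and a larger share of RNA from other cells cannot be told apart.

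All 10 genes were detected in all 4 libraries, and of 18 further pericyte genes 12 to 15 were at 1 FPKM or more in each library, with none at 0. Vtn and Rgs5 made up 56.7% of the summed FPKM of the 10 genes in the old tumor-bearing library and 70.0% to 74.8% in the others. Acta2 came next, at 5.02 to 9.74 FPKM. Tagln never reached 1 FPKM, the floor used below, and rested on 7 to 19 reads a library. The sum over the 10 genes was 91.3 FPKM in young tumor-bearing and 92.9 FPKM in young naive tissue. In old tissue it was 35.9 FPKM in tumor-bearing and 96.7 FPKM in naive tissue. The plot of levels shows this one library below the other 3 for 7 of the 10 genes.

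**Figure D1:**
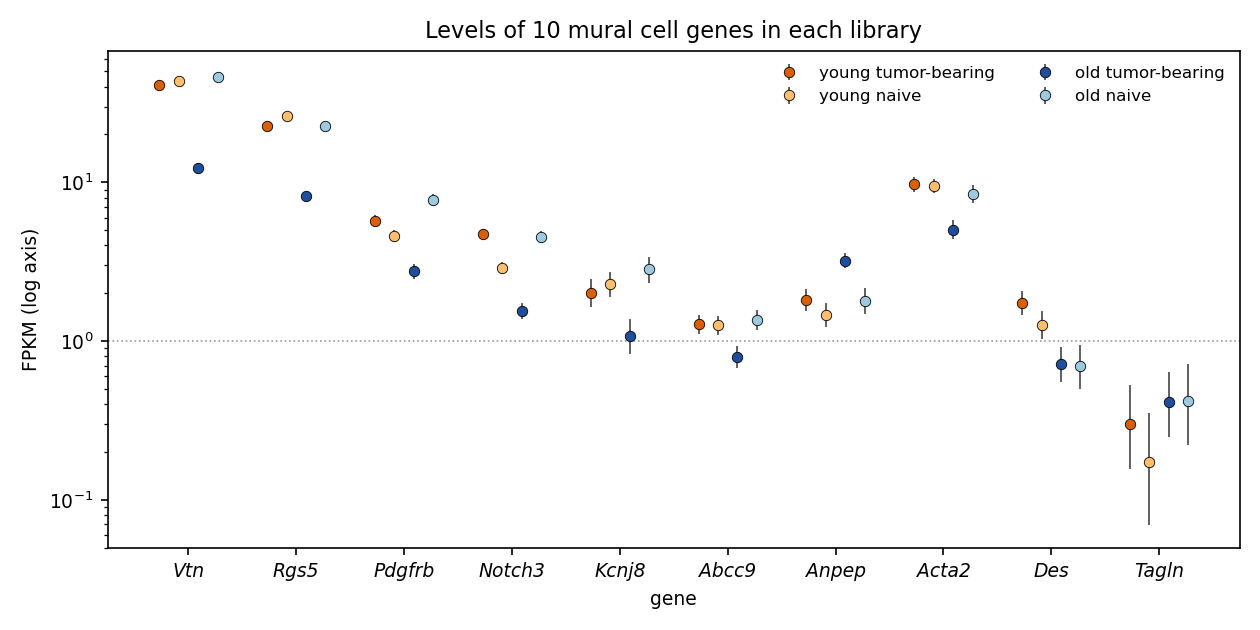
Level of each of 10 mural cell genes in FPKM on a log axis, with 1 point for each library (young tumor-bearing, young naive, old tumor-bearing, old naive) and bars for the exact Poisson 95% interval of its reads. The dotted line marks 1 FPKM. The old tumor-bearing point is the lowest for Vtn, Rgs5, Pdgfrb, Notch3, Kcnj8, Abcc9 and Acta2, and the highest for Anpep.

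The secreted product of the set is vitronectin. Vtn encodes this adhesive glycoprotein, which binds integrins and is made by pericytes in the brain (ENSMUSG00000017344, mm10 chromosome 11, 78499091 to 78502324, 6 merged exons). Vtn was at 41.2 FPKM (39.3 to 43.2) in young tumor-bearing and 43.3 FPKM (41.3 to 45.4) in young naive tissue, and at 12.2 FPKM (11.2 to 13.3) in old tumor-bearing and 46.1 FPKM (43.8 to 48.5) in old naive tissue. Only the old tumor-bearing library was low, and the neighbouring levels among the other 3 overlapped in their intervals. Vtn was 3.77-fold lower (3.42 to 4.16) in old tumor-bearing than in old naive tissue, the furthest apart of the 10 genes in any comparison in which they reached the floor. In young tumor-bearing against young naive tissue the difference was within counting error (0.951-fold, 0.889 to 1.02).

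Rgs5 encodes a GTPase-activating protein that shortens signalling by G proteins coupled to receptors (ENSMUSG00000026678, mm10 chromosome 1, 169655501 to 169695813). Rgs5 was at 22.7 FPKM (21.8 to 23.8) in young tumor-bearing and 26.2 FPKM (25.2 to 27.3) in young naive tissue, and at 8.15 FPKM (7.62 to 8.72) in old tumor-bearing and 22.7 FPKM (21.6 to 23.9) in old naive tissue. The order ran from young naive down to young tumor-bearing and old naive, which were level, and then to old tumor-bearing. Rgs5 was 2.79-fold lower (2.56 to 3.03) in old tumor-bearing than in old naive tissue and 1.15-fold lower (1.09 to 1.22) in young tumor-bearing than in young naive tissue. Of 8 other genes of the same RGS subfamily (Rgs1, Rgs2, Rgs3, Rgs4, Rgs8, Rgs13, Rgs16 and Rgs18), 5 reached the floor in the old tumor comparison. Of these 3 were lower by at least 2-fold and 1 higher, in a comparison in which 31.4% of all genes past the floor were lower by that much and 20.6% higher. Rgs4, which neurons also express, was 8.25-fold lower (7.77 to 8.75) there, at 18.2 and 149.7 FPKM, while Rgs16 was at 13.7 FPKM in old tumor-bearing and 3.72 FPKM in old naive tissue.

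The set holds 2 receptors. Pdgfrb (ENSMUSG00000024620, mm10 chromosome 18, 61045150 to 61085061) was at 5.72 FPKM (5.28 to 6.19) in young tumor-bearing and 4.61 FPKM (4.22 to 5.02) in young naive tissue, and at 2.75 FPKM (2.47 to 3.05) in old tumor-bearing and 7.78 FPKM (7.20 to 8.396) in old naive tissue. All 4 levels were apart beyond their intervals, with old naive the highest and old tumor-bearing the lowest. Notch3, which is altered in the inherited human small vessel disease CADASIL (ENSMUSG00000038146, mm10 chromosome 17, 32120820 to 32166852), was at 4.72 FPKM (4.39 to 5.07) in young tumor-bearing and 2.89 FPKM (2.64 to 3.17) in young naive tissue. In old tissue Notch3 was at 1.56 FPKM (1.38 to 1.75) in the tumor-bearing and 4.51 FPKM (4.15 to 4.90) in the naive library. The young tumor-bearing and old naive levels of Notch3 overlapped, and the other 2 stood below them.

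Both receptors were higher in young tumor-bearing than in young naive tissue and lower in old tumor-bearing than in old naive tissue. Pdgfrb was 1.24-fold higher (1.10 to 1.40) in the young pair and 2.83-fold lower (2.48 to 3.23) in the old pair. Notch3 was 1.63-fold higher (1.45 to 1.83) in the young pair and 2.90-fold lower (2.51 to 3.35) in the old pair. The ratio of Notch3 to Pdgfrb within a library does not depend on scaling between libraries. It was 0.825 (0.742 to 0.919) in young tumor-bearing and 0.628 (0.553 to 0.713) in young naive tissue, and 0.566 (0.483 to 0.663) in old tumor-bearing and 0.580 (0.518 to 0.650) in old naive tissue. This pair and the other within-library pairs below were chosen after the values were seen.

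Ligands and partners of these receptors were taken from fixed lists. In the old tumor comparison all 5 other PDGF genes (Pdgfa, Pdgfb, Pdgfc, Pdgfd and Pdgfra) were below 0 on the log2 scale and 3 were at least 2-fold lower, beside the 31.4% of all genes, with a median log2 ratio of -1.10. Under each of the 3 other scalings described below 0 of the 5 were 2-fold lower (medians -0.83 to -0.57), and scaled by fragments in genes 1 of the 5, Pdgfd, was above 0. Pdgfb, a ligand of the Pdgfrb receptor that is not made by endothelial cells alone, was at 4.82 FPKM in old tumor-bearing and 11.0 FPKM in old naive tissue (2.28-fold lower, 2.03 to 2.57). In the young tumor comparison 0 of the 5 were 2-fold apart, and Pdgfb was at 8.45 FPKM in tumor-bearing and 7.25 FPKM in naive tissue. Of 12 measured Notch ligands, receptors and targets, 4 were higher by at least 2-fold and 4 lower in old tumor-bearing tissue (median 0.04), beside 20.6% and 31.4% of all genes. The targets differed among themselves. Hes5 and Hey1, transcription factors induced by Notch, were 6.08-fold (4.11 to 9.26) and 4.58-fold (4.04 to 5.20) lower there. Hes1, another such factor, was at 5.19 FPKM in old tumor-bearing and 5.52 FPKM in old naive tissue, within counting error, and was named after its values were seen. Notch4, the Notch receptor of endothelial cells, was at 7.43 FPKM in old tumor-bearing and 1.44 FPKM in old naive tissue.

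Kcnj8 and Abcc9 encode the pore (Kir6.1) and the regulatory subunit (SUR2) of the vascular ATP-sensitive potassium channel, which couples membrane voltage to metabolism. The genes are neighbours on mm10 chromosome 6, with 0 protein-coding genes in the 16247 bases between them (ENSMUSG00000030247, 142564837 to 142571614, and ENSMUSG00000030249, 142587862 to 142702315). Kcnj8 was at 2.02 FPKM (1.65 to 2.45) in young tumor-bearing and 2.28 FPKM (1.89 to 2.73) in young naive tissue, and at 1.08 FPKM (0.832 to 1.38) in old tumor-bearing and 2.83 FPKM (2.34 to 3.41) in old naive tissue. Abcc9 was at 1.27 FPKM (1.11 to 1.46) in young tumor-bearing and 1.26 FPKM (1.10 to 1.44) in young naive tissue, and at 0.796 FPKM (0.676 to 0.932) in old tumor-bearing and 1.36 FPKM (1.17 to 1.57) in old naive tissue. For both subunits the old tumor-bearing library was the low one and the neighbouring levels of the other 3 overlapped.

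Kcnj8 was 2.62-fold lower (1.91 to 3.62) and Abcc9 1.71-fold lower (1.37 to 2.13) in old tumor-bearing than in old naive tissue. The ratio of Kcnj8 to Abcc9 was 1.59 (1.24 to 2.02) in young tumor-bearing and 1.81 (1.44 to 2.27) in young naive tissue. In old tissue it was 1.36 (0.998 to 1.83) in the tumor-bearing and 2.09 (1.63 to 2.66) in the naive library. The intervals overlapped within each age, which does not test whether the ratios differ. The related subunits Kcnj11 and Abcc8, which form the channel of neurons and pancreatic beta cells, were 8.08-fold (6.98 to 9.39) and 5.80-fold (5.08 to 6.65) lower in old tumor-bearing tissue.

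Anpep was the exception in direction. The gene encodes aminopeptidase N (CD13), a membrane enzyme that trims peptides and is found on pericytes and also on myeloid cells (ENSMUSG00000039062, mm10 chromosome 7, 79821803 to 79861059). Anpep was at 1.83 FPKM (1.55 to 2.14) in young tumor-bearing and 1.47 FPKM (1.22 to 1.75) in young naive tissue, and at 3.21 FPKM (2.87 to 3.59) in old tumor-bearing and 1.79 FPKM (1.48 to 2.15) in old naive tissue. The old tumor-bearing library was the high one, 1.79-fold above old naive (1.44 to 2.24), and the neighbouring levels of the other 3 overlapped. The ratio of Anpep to Pdgfrb was 0.319 (0.265 to 0.382) in young tumor-bearing and 0.318 (0.260 to 0.388) in young naive tissue, and 1.17 (1.0 to 1.37) in old tumor-bearing and 0.230 (0.188 to 0.281) in old naive tissue.

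Most macrophage genes were also higher in old tumor-bearing than in old naive tissue. Of 11 listed, 10 reached the floor and 8 were higher in old tumor-bearing tissue by 2-fold or more, with 0 lower (median log2 ratio 2.63), beside 20.6% and 31.4% of all genes. Cd163, which did not reach the floor, was at 0.102 FPKM in old tumor-bearing and 0.936 FPKM in old naive tissue, and was named after its values were seen. Their summed level was 49.6 FPKM in young tumor-bearing and 20.6 FPKM in young naive tissue, and 331.0 FPKM in old tumor-bearing and 28.9 FPKM in old naive tissue, with none of the 11 at 0 in any library. Their part in the level of Anpep was not tested. Among 113 genes of the cell type and vessel lists, the one whose profile over the 4 libraries lay nearest to that of Anpep was Itgam, a myeloid integrin (root mean square distance 0.08 on the log2 scale). For the 6 pericyte genes described above the nearest were Flt1 (Pdgfrb), Heyl (Rgs5), Erg (Kcnj8), Esam (Abcc9), Gjb2 (Vtn) and Abcb1a (Notch3), at distances of 0.06 to 0.14. Of these Flt1, Erg, Esam and Abcb1a are endothelial, Heyl is on the pericyte list and Gjb2 on the fibroblast list. The smallest distance of all was that of Acta2 to Mag, a myelin gene of oligodendrocytes (0.025), and Des and Tagln lay nearest to the fibroblast gene Dcn (0.18) and the basement membrane gene Col4a1 (0.14). With 4 points a profile, such likeness is only a description.

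The contractile and cytoskeletal genes were less uniform. Acta2, smooth muscle actin (ENSMUSG00000035783, mm10 chromosome 19, 34241090 to 34255590), was at 9.74 FPKM (8.74 to 10.8) in young tumor-bearing and 9.47 FPKM (8.50 to 10.5) in young naive tissue, and at 5.02 FPKM (4.36 to 5.75) in old tumor-bearing and 8.47 FPKM (7.42 to 9.62) in old naive tissue. The neighbouring levels of the upper 3 overlapped, and old tumor-bearing lay 1.69-fold below old naive (1.39 to 2.04). The ratio of Acta2 to Rgs5 was 0.428 (0.381 to 0.480) in young tumor-bearing and 0.362 (0.322 to 0.405) in young naive tissue, against 0.616 (0.527 to 0.717) in old tumor-bearing and 0.373 (0.324 to 0.428) in old naive tissue. Relative to Rgs5, Acta2 was thus highest in old tumor-bearing tissue, and its interval there did not overlap those of the other 3. No window of 100 bases in the annotated Acta2 transcripts occurs in a transcript of another gene, including the other actins. Of those, Acta1, the skeletal muscle actin, was at 0.896 FPKM in old tumor-bearing and 7.20 FPKM in old naive tissue, and the ubiquitous Actb at 601.7 and 380.9 FPKM.

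Des encodes desmin, a muscle intermediate filament (ENSMUSG00000026208, mm10 chromosome 1, 75360329 to 75368579). Des was at 1.74 FPKM (1.46 to 2.07) in young tumor-bearing and 1.26 FPKM (1.03 to 1.54) in young naive tissue, and at 0.722 FPKM (0.555 to 0.923) in old tumor-bearing and 0.698 FPKM (0.501 to 0.947) in old naive tissue. Here the libraries split by age label, with both old ones below both young ones. Des was 1.38-fold higher (1.05 to 1.81) in young tumor-bearing than in young naive tissue, and below the floor in both old libraries. Vimentin (Vim), an intermediate filament protein that can assemble with desmin, was at 346.9 FPKM in old tumor-bearing and 10.08 FPKM in old naive tissue, so Des did not share its level.

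Tagln, transgelin, binds actin in smooth muscle (ENSMUSG00000032085, mm10 chromosome 9, 45929619 to 45936058). Tagln was at 0.302 FPKM (0.156 to 0.527) in young tumor-bearing and 0.172 FPKM (0.0692 to 0.355) in young naive tissue, and at 0.411 FPKM (0.248 to 0.642) in old tumor-bearing and 0.418 FPKM (0.222 to 0.715) in old naive tissue. Neighbouring levels overlapped throughout, so no difference was detectable at this depth. Of the 100-base windows of its transcripts 48.3% also occur in Pcsk7 or Gm48529, which overlap it on the opposite strand, and since the labels do not say whether the library kept strand, the level of Tagln is uncertain. Smaller antisense overlaps touch Notch3 (3.61% of windows, Gm17276), Des (3.28%, Gm15179) and Abcc9 (0.735%, 5330439B14Rik).

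Promoter sequence is shown for the smooth muscle gene Acta2, for Vtn, which was the lowest in old tumor-bearing relative to old naive tissue, and for Anpep, which was the one that was higher there. Each runs 5′ to 3′ from 250 bases before the RefSeq start to 50 bases after it, on GRCm38.p6, the assembly also called mm10. Acta2 is chr19:34255324-34255623 on the minus strand, Vtn chr11:78498870-78499169 on the plus strand and Anpep chr7:79848161-79848460 on the minus strand. The Anpep window lies inside the annotated gene, which has 6 transcripts and its 5′ end at 79861059, and no other start site of Anpep was searched. Capitals mark 3 motifs searched on both strands. One is a CArG-like frame, CC and GG around 6 letters of which at most 1 is G or C, after the CArG box bound by serum response factor. The others are TGGGAA, the core bound by the Notch partner RBPJ, and CATTCC, the MCAT motif bound by TEAD factors.
Acta2: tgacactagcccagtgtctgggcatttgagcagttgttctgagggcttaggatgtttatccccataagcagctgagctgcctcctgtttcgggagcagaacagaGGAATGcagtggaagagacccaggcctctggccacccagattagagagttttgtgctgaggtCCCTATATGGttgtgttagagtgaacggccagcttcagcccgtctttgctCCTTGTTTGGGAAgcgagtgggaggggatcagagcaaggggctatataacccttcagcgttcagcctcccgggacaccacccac
Vtn: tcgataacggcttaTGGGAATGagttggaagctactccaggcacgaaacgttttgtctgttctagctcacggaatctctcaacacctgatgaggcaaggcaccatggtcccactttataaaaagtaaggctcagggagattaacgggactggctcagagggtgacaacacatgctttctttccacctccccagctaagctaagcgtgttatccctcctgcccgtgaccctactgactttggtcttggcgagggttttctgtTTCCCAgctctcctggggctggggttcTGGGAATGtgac
Anpep: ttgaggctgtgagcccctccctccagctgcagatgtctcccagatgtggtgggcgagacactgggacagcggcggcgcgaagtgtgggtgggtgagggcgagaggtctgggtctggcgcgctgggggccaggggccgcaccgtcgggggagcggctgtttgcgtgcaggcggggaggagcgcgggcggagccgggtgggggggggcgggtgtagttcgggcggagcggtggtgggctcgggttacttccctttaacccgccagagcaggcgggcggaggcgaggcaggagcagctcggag

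The Acta2 promoter held the CArG-like frame at positions -84 and -34, counted from the start site, as ccctatatgg and ccttgtttgg. None of the other 7 promoters matched among the 10 genes did, and 9.98% of all 32851 RefSeq promoters of this length do. TGGGAA lay in 4 of the 8 promoters (Kcnj8, Abcc9, Vtn and Acta2) and in 25.6% of all, and CATTCC in 3 of the 8 (Abcc9, Vtn and Acta2) and in 14.7% of all. Vtn held 3 copies of TGGGAA, of which 2 overlapped CATTCC on the opposite strand, and in Acta2 one copy overlapped the frame at -34. Anpep held none of the 3, and neither did Rgs5, Notch3 or Des. G and C made up 72.3% of the Anpep promoter shown, against 51.7% in Vtn, 54.7% in Acta2 and a median of 52.7% over all promoters. The share was also high in Notch3 (70%), Abcc9 (65.7%) and Des (65.3%). Notch3, which was lower in old tumor-bearing than in old naive tissue, thus shared both traits with Anpep. A match is a run of letters and does not show that a factor binds.

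The first comparison as a whole, young tumor-bearing with young naive tissue, asked how brain outside the tumor differs in young mice. The mural genes were close to level. Of 9 that reached 1 FPKM in either library, 0 were higher by at least 2-fold and 0 lower. Over all 15500 genes past the floor, 5.05% were higher and 1.85% lower. The median log2 ratio of FPKM + 0.1 was 0.04 for the mural genes and -0.01 for all genes, and a list of 20 endothelial genes stood at 0.03. Counting intervals excluded 1 for Notch3, Pdgfrb and Des, which were higher, and for Rgs5, which was lower.

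Other mural genes were also near level in young mice. Over all genes past the floor, 5.05% were at least 2-fold higher in young tumor-bearing tissue and 1.85% lower. Of 15 measured genes of the second pericyte list, 1 was higher by at least 2-fold and 0 lower (median 0.01). This was Higd1b, a pericyte marker of mouse brain, at 3.01 and 1.44 FPKM, with 51 reads in tumor-bearing and 25 in naive tissue. Of 13 measured smooth muscle contractile genes 0 were 2-fold apart (median 0.04). The basement membrane list, whose proteins enclose pericytes, had a median of 0.61, with 1 of 12 at least 2-fold higher, the perlecan gene Hspg2 at 2.43 FPKM in tumor-bearing and 0.937 FPKM in naive tissue.

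In the second comparison, old tumor-bearing with old naive tissue, most of the mural genes past the floor were lower and Anpep was higher. Of 8 mural genes past the floor, 5 were at least 2-fold lower (Vtn, Notch3, Pdgfrb, Rgs5 and Kcnj8) and 0 higher. Over all 16488 genes, 31.4% were lower and 20.6% higher. The median log2 ratio was -1.39 for the mural genes and -0.31 for all genes. Abcc9 and Acta2 were lower by less than 2-fold, Anpep was higher by less than 2-fold, and Des and Tagln were below the floor.

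The count depended on how libraries were scaled. With median-of-ratios scaling 4 of 8 were at least 2-fold lower and 24.3% of all genes. With equal totals after leaving out mitochondrial and the 50 highest genes the figures were 5 of 8 and 25.3%. Scaled by fragments in genes, they were 1 of 8 (Vtn) and 20.4%, and the higher share of all genes was 30.4%. That scaling raises log2 ratios by close to 0.58, and those of low genes by less. Under each of these 3 scalings Anpep was at least 2-fold higher. The direction of all 8 genes was the same under the 4 scalings, as the plot of scalings shows.

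**Figure D2:**
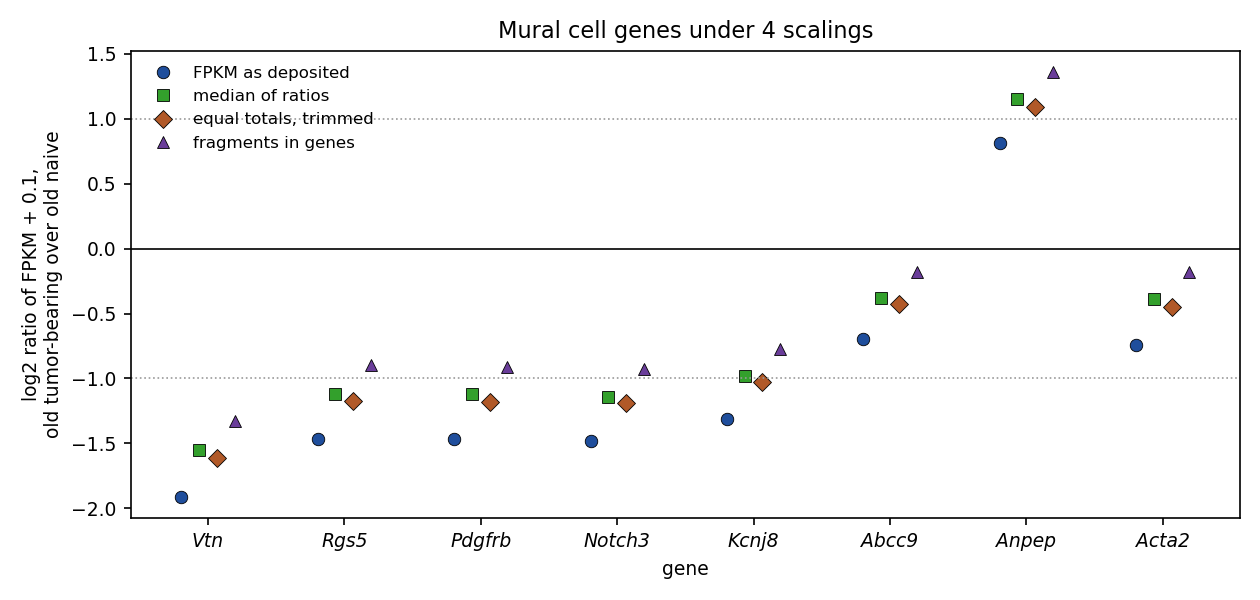
Log2 ratio of FPKM + 0.1 in old tumor-bearing over old naive tissue for the 8 mural genes past 1 FPKM, under the deposited FPKM and 3 other scalings (1 symbol each). Dotted lines mark 2-fold. Vtn lies below -1 under all 4, and Anpep lies above 0 under all 4.

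Markers of other cell types differed between the same 2 old libraries. Over all genes past the floor, 31.4% were at least 2-fold lower in old tumor-bearing tissue and 20.6% higher. The endothelial median log2 ratio was -0.55, with 6 of 19 genes at least 2-fold lower and 2 higher, and the fibroblast median -0.47, with 6 of 13 lower and 2 higher. Scaled by fragments in genes these medians were 0.01 and 0.10, and the mural one -0.83. As deposited, the mural median lay 0.84 below the endothelial one on the log2 scale. It lay 1.13 above the median of 10 neuronal genes (-2.52) and 0.08 above that of 8 astrocyte genes (-1.47). The summed endothelial level was 228.5 FPKM in old tumor-bearing and 195.1 FPKM in old naive tissue. On the log2 scale 16 of the 19 measured endothelial genes were below 0 and 3 above. The sum included Ly6c1 and the glucose transporter Slc2a1. They were at 63.1 and 79.7 FPKM in old tumor-bearing tissue and 20.7 and 29.3 FPKM in old naive tissue. The astrocyte sum was 260.5 FPKM in old tumor-bearing and 892.3 FPKM in old naive tissue, and the neuronal sum 304.8 and 1497 FPKM. The part of these cell types in the level of the mural genes was not tested.

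**Figure D3:**
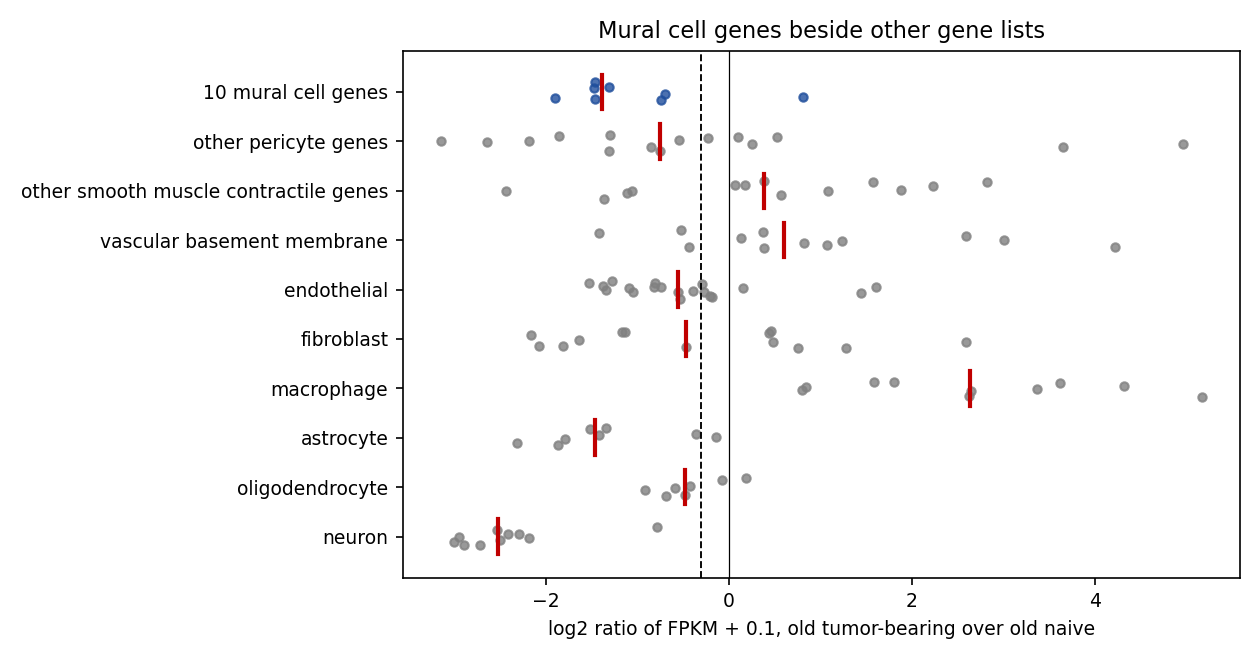
Log2 ratio of FPKM + 0.1 in old tumor-bearing over old naive tissue for the measured genes of 10 lists (points, 1 per gene, with red bars at list medians and a dashed line at the median of all genes, -0.31). The mural genes (median -1.39) lie between the endothelial genes (-0.55) and the neuronal genes (-2.52), with Anpep alone to the right of 0.

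Pericyte genes outside the set split. Of 15 measured, 6 were at least 2-fold lower and 2 higher in old tumor-bearing tissue (median -0.75), beside 31.4% and 20.6% of all genes. The lowest were Gucy1a1 and Gucy1b1, the subunits of the nitric oxide receptor guanylate cyclase, which neurons also express, at 9.21-fold (8.27 to 10.3) and 6.33-fold (5.84 to 6.87) lower. The highest was Mcam, an adhesion molecule of mural and endothelial cells and of some tumors, at 260.7 FPKM in old tumor-bearing and 8.22 FPKM in old naive tissue, followed by Art3 at 12.4 and 0.894 FPKM. Mcam was at 9.55 FPKM in young tumor-bearing tissue, so the old tumor-bearing library alone was high.

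Smooth muscle contractile genes outside the set went both ways. Of 13 measured, 5 were higher by at least 2-fold and 4 lower in old tumor-bearing tissue (median 0.39). The most distant were Actg2, smooth muscle gamma-actin (3.23 and 0.369 FPKM), Smtn, smoothelin (11.6 and 2.38 FPKM), and Flna, filamin A (55.8 and 15.03 FPKM), all higher, and Nexn, nexilin, 6.10-fold lower (4.57 to 8.25). Myh11, the smooth muscle myosin heavy chain and the most specific of the list, was at 0.60 FPKM in old tumor-bearing and 1.71 FPKM in old naive tissue and was named after its values were seen. Myocd, the cofactor of serum response factor that drives the contractile program, was below the floor, with 2 reads in old tumor-bearing and 5 in old naive tissue, too few to show a difference.

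Skeletal muscle also expresses Des. Its list of 11 summed to 5.85 FPKM in young tumor-bearing and 6.95 FPKM in young naive tissue, and 15.4 FPKM in old tumor-bearing and 9.31 FPKM in old naive tissue, with Tnnc2 at 0 in the young tumor-bearing and old naive libraries. In old tumor-bearing tissue Tnni2 and Tnnt3 were at 7.38 and 4.46 FPKM, against 0.171 and 0.0404 FPKM in old naive tissue, while Acta1 was lower, as given above. Of 4 genes of the list past the floor 3 were at least 2-fold higher and 1 lower, beside 20.6% and 31.4% of all genes. The 3 higher ones reached the floor only in the old tumor-bearing library. Genes below the floor went both ways. Myh1 was at 0.0135 FPKM in old tumor-bearing and 0.292 FPKM in old naive tissue, and Atp2a1 at 0.495 and 0.147 FPKM. Both were named after their values were seen. Des differed between these 2 libraries by less than counting error (1.03-fold, 0.687 to 1.57), and the part of skeletal muscle in its level was not tested.

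The third comparison, old naive with young naive tissue, set the 2 age labels side by side without tumor. Age cannot be told apart here from any other difference between these single libraries, such as the brain regions they hold. Of 9 mural genes past the floor 0 were at least 2-fold apart in either direction, beside 6.71% of 15419 genes higher and 4.93% lower. The median log2 ratio was 0.10 for the mural genes and 0.06 for all genes, and scaled by fragments in genes it was -0.03 and -0.08. Pdgfrb was 1.69-fold higher (1.504 to 1.90) and Notch3 1.56-fold higher (1.38 to 1.76) in old naive tissue, while Des was 1.81-fold lower (1.25 to 2.68) and Rgs5 1.15-fold lower (1.08 to 1.23). The other 6 of the 10 intervals included 1. Both this comparison and the first use the young naive library, in which Pdgfrb and Notch3 were the lowest of all but the old tumor-bearing library.

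Over all genes past the floor, 6.71% were at least 2-fold higher in old naive tissue and 4.93% lower. Within the second pericyte list, 0 of 15 were higher by at least 2-fold and 2 lower in old naive tissue. These were Zic1, at 3.97 FPKM in old naive and 53.7 FPKM in young naive tissue, and Pde5a, a cyclic GMP phosphodiesterase, at 1.56 and 4.05 FPKM. Zic1 is also a transcription factor of cerebellar neurons, and was at 56.1 FPKM in young tumor-bearing and 4.74 FPKM in old tumor-bearing tissue. Of the basement membrane list 3 of 11 were at least 2-fold higher, the collagen IV genes Col4a1 and Col4a2 and the laminin gene Lama5, and 1 was lower, Sparc at 52.6 FPKM in old naive and 166.1 FPKM in young naive tissue.

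The last comparison set old tumor-bearing beside young tumor-bearing tissue and shares its first library with the second comparison. Of 9 mural genes past the floor, 5 were at least 2-fold lower (Vtn, Notch3, Rgs5, Des and Pdgfrb) and 0 higher, beside 29.8% of 16562 genes lower and 19.0% higher. The median log2 ratio was -1.03 for the mural genes and -0.28 for all genes. Vtn was 3.37-fold lower (3.07 to 3.71), Notch3 3.04-fold (2.65 to 3.49), Rgs5 2.79-fold (2.58 to 3.02), Des 2.42-fold (1.78 to 3.32) and Pdgfrb 2.08-fold (1.82 to 2.38). Anpep was 1.76-fold higher (1.44 to 2.15). Scaled by fragments in genes or by median of ratios, 3 of the 9 were at least 2-fold lower, beside 21.3% and 22.8% of all genes.

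**Figure D4:**
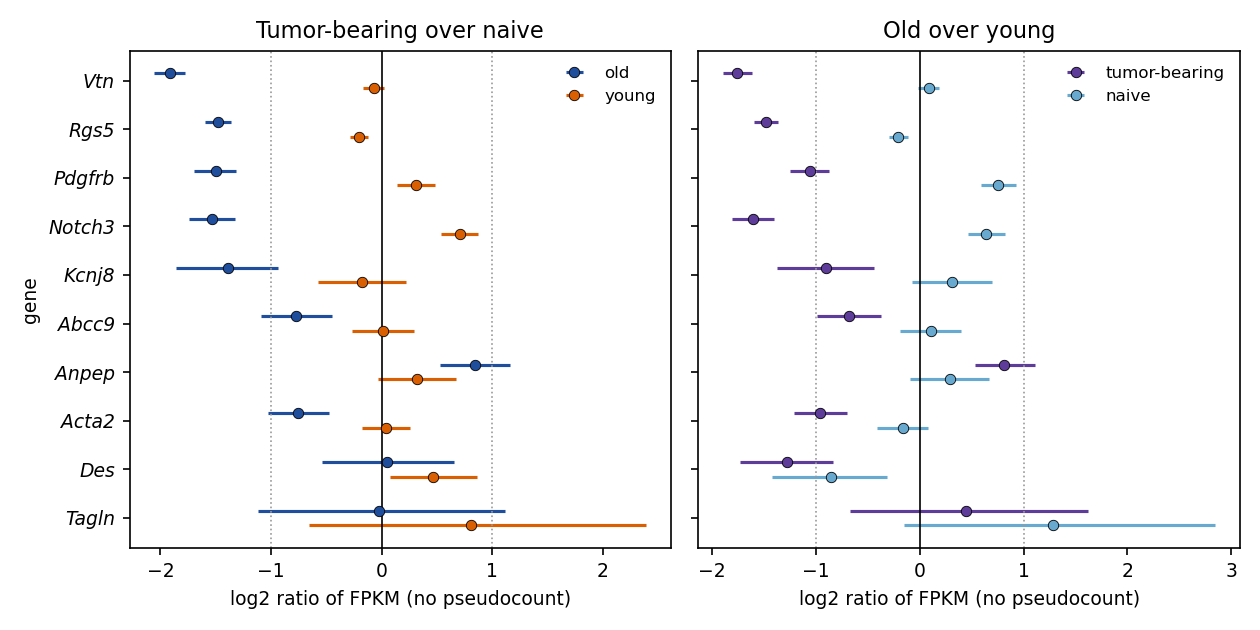
Log2 ratio of FPKM for each mural gene with the exact 95% interval of its reads, for tumor-bearing over naive tissue (left, old and young mice) and for old over young mice (right, tumor-bearing and naive tissue). Dotted lines mark 2-fold. Pdgfrb and Notch3 lie right of 0 in young mice and left of 0 in old mice in the left panel.

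The tumor difference was then set beside age. Subtracting the young log2 ratio of tumor-bearing over naive tissue from the old one gave values below 0 for 8 of the 9 mural genes at 1 FPKM or more in any library, with 5 at -1 or less and a median of -1.15. The counting interval lay below 0 for 7 of them and included 0 for Des (-1.10 to 0.27). Tagln, left out here by the floor, was at -0.58 (-2.52 to 0.85). The intervals of these differences are not exact. They are normal approximations from the reads, for ratios of FPKM without the added 0.1. Over 17441 genes at 1 FPKM or more in any library, 10298 were below 0, 5583 were at -1 or less, and the median was -0.32. The most negative were Notch3 (-2.17), Vtn (-1.83) and Pdgfrb (-1.78), and Anpep was the one above 0 (0.51). Scaled by fragments in genes, 7 of the 9 were below 0 (Des was at 0.06), 3 were at -1 or less, and the medians were -0.66 for the mural genes and 0.17 for all genes. With 1 library in each of the 4 groups these differences have no test.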

How the data were processed

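Poly-A RNA of brain tissue was sequenced in paired ends, 1 library for each of 4 groups, and groups were taken from the labels. The authors deposited FPKM, per the file headers. The submitters' processing notes name HISAT2 and mm10, and the counting program, annotation and any pooling of mice are not given in the sources used here. GENCODE M21, on the same assembly, named 54495 of 54532 genes. FPKM times exon length came in whole steps, which gave the reads of each gene: 31928 of 32846 genes (97.2%) were whole in all 4 libraries, within 0.03 reads or 2e-05 of the value. For Notch3 and Acta2 the annotated length (8089 and 2196 bases) gave no whole reads, and the only length that did within 0.01 (8044 and 1781 bases) was used for reads. Their deposited FPKM was kept. At 1 kb, 3 reads, the limit a count of 0 allows, correspond to 0.150, 0.147, 0.129 and 0.192 FPKM in the young tumor-bearing, young naive, old tumor-bearing and old naive libraries.

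Ratios on the log2 scale used FPKM + 0.1, so that differences of low genes are understated, for genes of at least 1 FPKM in either library, and genes 2-fold apart were counted. Folds are ratios of FPKM without the added value, with exact conditional binomial 95% intervals. Levels have exact Poisson intervals. The reads carry no molecular identifiers, so intervals cover counting error only. Recovery of reads and intervals was tested on simulated data. Alternatives changed the pseudocount (1, 0.01), the floor (none, 5 FPKM), the scaling (3 others) and the background (protein-coding genes). Besides the 10 genes, at most 4 genes of a list with the largest ratio were named, and others where stated. The genes and lists were chosen with earlier results of these data known. Promoters are RefSeq's on GRCm38.p6 and were matched for 8 of the 10 genes. Work was done in Python 3.11.15 with numpy 2.4.6, pandas 2.3.3 and scipy 1.17.1.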

Additional observations from a re-analysis of the deposited data

Results flagged for a closer look

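Pdgfrb and Notch3 were higher in tumor-bearing than in naive tissue of young mice and lower in tumor-bearing than in naive tissue of old mice, beyond counting error each time. The old minus young difference of the log2 ratios was -1.78 for Pdgfrb and -2.17 for Notch3. With 1 library a group the difference was not tested. Neither direction was reversed under any alternative that measured the gene.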

How the results depend on the processing

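No paired analysis was possible because each group was 1 library and the labels carry no replicate numbers. For old tumor-bearing relative to old naive tissue, the median log2 ratio of the mural genes was -1.39 as deposited. It was -1.0 with a pseudocount of 1, -1.03 with no floor, -1.05 with median-of-ratios scaling, -0.83 with scaling by fragments in genes, and -1.10 with equal totals without mitochondrial and the 50 highest genes. The number at least 2-fold lower was 5 as deposited, 3 with a floor of 5 FPKM (where 4 genes were measured) and 1 with scaling by fragments. The shares of all genes at least 2-fold lower were 31.4%, 31.5% and 20.4% in turn. Under the 3 scalings 1 gene, Anpep, was at least 2-fold higher, beside 25.2% to 30.4% of all genes. In old against young tumor-bearing tissue the number at least 2-fold lower was 5 as deposited and 3 with a pseudocount of 1, with a floor of 5 FPKM, with median-of-ratios scaling and with scaling by fragments. The shares of all genes were 29.8% as deposited and 21.7%, 28.3%, 22.8% and 21.3% in turn. Under median-of-ratios scaling and scaling by fragments 1 gene, Anpep, was at least 2-fold higher, beside 24.1% and 25.5% of all genes. The median of -1.03 became -0.73 and -0.66. The scalings multiply the FPKM of every gene of a library by the same factor, by construction. Log2 ratios of FPKM + 0.1 then shift by nearly the same amount, and those of low genes by less. In these comparisons no median changed sign, while for old relative to young naive tissue the median of 0.10 was -0.04 with a floor of 5 FPKM, -0.03 with scaling by fragments and -0.02 with equal totals. Of 226 values of single genes under these alternatives, 185 moved by less than the mean reach of their counting interval to either side, and 41 by more. A changed floor leaves the ratio of a single gene as it was, so those values are among the 185 by construction. Among protein-coding genes alone the share of all genes at least 2-fold apart was 2.66% in place of 6.90% (young tumor comparison), 49.0% in place of 52.0% (old tumor comparison), 6.32% in place of 11.6% (naive) and 45.5% in place of 48.9% (tumor-bearing). Levels near 1 FPKM, such as those of Abcc9 and Des, rested on 41 to 216 reads.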

Other observations

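Pericytes lie within the vascular basement membrane. Of 12 genes for its components, 9 had a log2 ratio above 0 in old tumor-bearing over old naive tissue, and 5 were higher by at least 2-fold and 1 lower than in old naive tissue (median log2 ratio 0.60), beside 20.6% of all genes higher and 31.4% lower. Scaled by fragments in genes 6 were higher and 0 lower, beside 30.4% and 20.4%. Hspg2, which encodes perlecan, was at 36.4 FPKM in old tumor-bearing and 1.86 FPKM in old naive tissue, and the laminin genes Lamb1 and Lama4 were at 17.5 and 6.20 FPKM in old tumor-bearing and 2.08 and 0.948 FPKM in old naive tissue. Of the list of angiopoietin, sphingosine and TGF-beta genes, 5 of 13 were higher by at least 2-fold and 4 lower, against those shares of all genes as deposited (median -0.30, and 0.26 when scaled by fragments in genes). Angpt2, the ligand known to loosen contacts between endothelium and pericytes, was 6.54-fold higher (4.42 to 10.02). S1pr1, a sphingosine receptor of endothelial cells that astrocytes also express, was 4.17-fold lower (3.86 to 4.49).

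Of the integrins and partners that bind vitronectin, 3 of 7 measured were higher by at least 2-fold in old tumor-bearing tissue, beside 20.6% of all genes. None was called lower, but Itgb8 was just inside the threshold (log2 ratio of -0.999, at 3.18 FPKM in old tumor-bearing and 6.47 FPKM in old naive tissue). Plaur, the urokinase receptor, was at 6.44 FPKM in old tumor-bearing and 0.464 FPKM in old naive tissue, and Itgb1 at 67.7 and 17.1 FPKM. The subunits of the classical vitronectin receptors, named after their values were seen, were closer to level: the fold in old tumor-bearing over old naive tissue was 0.729 for Itgav, 1.22 for Itgb3 and 1.35 for Itgb5.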
